A study of Mus musculus with 10 samples.

Results

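The genes described here are 10 that carry the signal of TGF-β receptors to the nucleus or hold it back: the SMAD proteins Smad2, Smad3, Smad4, Smad6 and Smad7, the SMURF ubiquitin ligases Smurf1 and Smurf2, the co-repressors Ski and Skil, and the membrane protein Pmepa1. They were chosen by name for these roles, by a rule that uses no measured value, and make up 10 of the 50763 genes in the table. Earlier results of these data were known when the choice was made. RNA-seq was performed on epithelia peeled from lenses of FVB/N mice aged 3 weeks, in 10 libraries. The 3 WT libraries came from mice without a transgene, 3 libraries from the line OVE853 and 4 from the line OVE918. Both lines secrete a constitutively active human TGF-β1 that is driven by the αA-crystallin promoter, so that the transgene is restricted to the lens, and form plaques under the anterior capsule. Each library was a pool of explants from up to 9 mice in WT and OVE853 and up to 7 in OVE918, with both sexes mixed, and the whole epithelium was taken rather than the plaque. Each line is 1 transgenic family, so that an effect of the dose of TGF-β1 and any other property of a line cannot be told apart.

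TGF-β binds a pair of receptor kinases, which phosphorylate SMAD2 and SMAD3, and these enter the nucleus with SMAD4 to regulate transcription. SMAD6 and SMAD7 block this step at the receptor, SMAD7 with the help of the SMURF ligases, while SKI and SKIL (SnoN) repress SMAD complexes on DNA and PMEPA1 holds SMAD2 and SMAD3 away from the receptor. Smad7, Skil and Pmepa1 are known in many cells as genes that TGF-β itself induces, which makes them a negative feedback loop. In the lens epithelium TGF-β is known for driving the transition to myofibroblast-like cells that occurs in fibrotic cataract.

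Libraries held between 24073311 and 31908525 counts on genes. Levels of a gene are given as CPM, which are counts relative to the TMM-scaled total of the library, and levels of different genes are compared as FPKM, which are CPM per kilobase of exon. Reads counted on Tgfb1, where mouse and transgene sequence cannot be told apart, checked the labels: they stood at 54.3 ± 6.41 CPM (SD, n = 3) in WT, at 350 ± 11.3 in OVE853 (n = 3) and at 775 ± 78.0 in OVE918 (n = 4). The lens epithelial genes Pax6 and Foxe3 were expressed in all 10 libraries. Pax6 stood at 430 to 463 CPM in WT, 435 to 473 in OVE853 and 356 to 402 in OVE918, where every library lay below WT. Other markers of that list went in both directions. Pitx3 was above its WT range of 147 to 183 CPM in both lines, and Prox1 above its range of 294 to 532 in OVE853. Cdh1 was below its WT range of 258 to 395 in OVE853, and Npnt below its range of 311 to 522 in OVE918. Foxe3 overlapped WT in both lines. The 8 lens epithelium markers summed to 154000 to 159300 CPM in WT, 104700 to 119200 in OVE853 and 129200 to 196300 in OVE918, nearly all of it Cryaa and Cryab. The OVE853 sums thus lay below those of WT. Markers of other eye cells also differed among libraries. The summed level of 6 retinal neuron markers was 501 CPM in WT replicate 3, 84.3 and 95 in the other WT libraries, 22.9 to 42.8 in OVE853 and 14.8 to 67.4 in OVE918. The 5 markers of the non-pigmented ciliary epithelium summed to 162 to 242 CPM in WT, 43.8 to 61.3 in OVE853 and 15.7 to 26.7 in OVE918. Sums over the 7 lens fibre markers were 14830 to 22110 in WT, 9177 to 15780 in OVE853 and 13740 to 28290 in OVE918, and those over the 6 macrophage markers were 12.0 to 31.2, 32.4 to 49.3 and 22.4 to 58.5. None of these markers was at 0 in any library. The 4 corneal epithelium markers summed to 237 to 1619 CPM in WT, 62.7 to 92.9 in OVE853 and 26.6 to 81.8 in OVE918, nearly all of it Aldh3a1. The keratin Krt12 was low in WT, at 0.760, 0.654 and 4.91 CPM, and at 0 in all 7 transgenic libraries. Krt5 stood at 0.268 to 2.21 CPM in WT, 0 to 0.238 in OVE853 and 0.0372 to 0.277 in OVE918. Krt14 went the other way in OVE918, at 0.224 to 1.06 CPM, beside 0.0447 to 0.231 in WT and 0.0302 to 0.238 in OVE853. The part of these cells in the results was not tested. In whole explants, fewer cells of a type and less RNA per cell cannot be told apart.

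Tgfb1 counts were 6.43-fold higher than in WT in OVE853 and 14.3-fold higher in OVE918. Of the SMADs and their feedback genes, Smad3 and Smurf1 rose in OVE853, by 1.48-fold and 1.36-fold, and Smad2 fell by 16.2% in OVE918. The other 8 members in OVE853 and the other 9 in OVE918 did not pass the test, and no fold change of the 10 reached 2-fold in either line. A gene is called here when its FDR, the Benjamini-Hochberg adjusted p of the edgeR quasi-likelihood test over the 11100 genes tested, is at most 0.05, and it is a DEG when its absolute log2 fold change is also at least 1. All 10 members passed the filter of at least 2 FPKM in 5 libraries and were tested.

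In OVE853, 2 of the 10 members were called higher and 0 lower, where 8.10% of all tested genes were called higher and 7.68% lower. In OVE918, 0 were called higher and 1 lower, against 8.00% and 11.0% of all genes. No member was a DEG in either line, whereas 4.42% of all genes were DEGs in OVE853 and 5.60% in OVE918. The median log2 fold change of the members was 0.22 in OVE853 and -0.01 in OVE918, beside medians of -0.01 and 0.01 over all tested genes. The fitted level was above WT for 9 of 10 members in OVE853 and for 5 of 10 in OVE918, where 48.7% and 52.1% of all genes were above it. Individual libraries of OVE853 and WT did not overlap for 5 of 10 members, where 45.4% of all genes did not overlap, and those of OVE918 and WT did not overlap for 2 of 10, where 27.2% did not. Both contrasts use the same WT libraries.

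**Figure D1:**
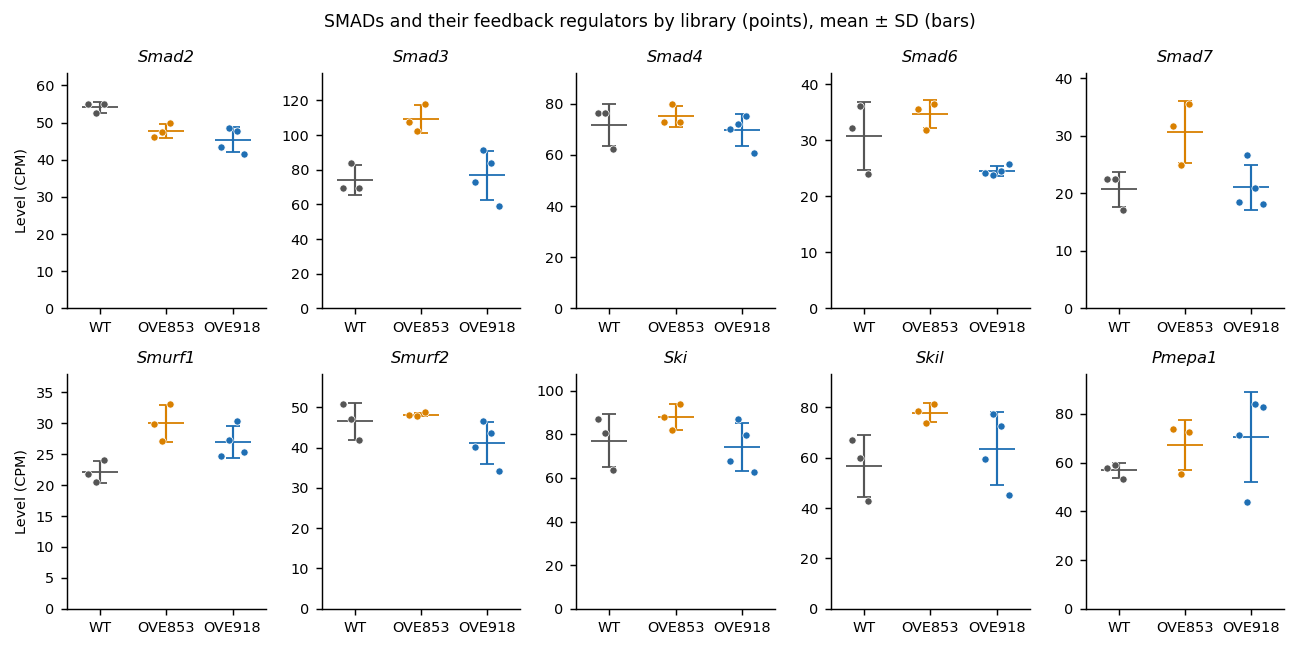
Levels of the 10 members in CPM (y axis, from 0, with its own scale in each panel) in the libraries of WT, OVE853 and OVE918 (x axis). Points are libraries, horizontal bars are means and vertical bars are SD. Smad3 and Smurf1 lie above the WT range in all 3 OVE853 libraries, and Smad2 lies below it in all 7 transgenic libraries.

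Among the receptor-regulated SMADs, which receptors phosphorylate, Smad3 (chr9:63554049-63665476, minus strand, GRCm39) was measured at 69.3, 83.8 and 69.2 CPM in WT. In OVE853 it stood at 107.6, 102.3 and 118 CPM, and in OVE918 at 72.7, 91.4, 83.8 and 59.3. Every OVE853 library exceeded every WT library, while the OVE918 libraries spread over and beyond the WT range on both sides. The log2 fold change of Smad3 was 0.56 ± 0.15 (SE) in OVE853 (edgeR FDR = 0.0299), with a 95% interval from 0.23 to 0.89. In OVE918 it was 0.05 ± 0.14 (edgeR FDR = 0.833), with an interval from -0.26 to 0.36 that overlaps the one of OVE853. The direct test between the lines did not pass (edgeR FDR = 0.0844). The call in OVE853 was lost when WT replicate 1 or 3 or any OVE853 library was left out, with the log2 fold change then between 0.50 and 0.61 and the edgeR FDR between 0.0545 and 0.113.

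Smad2 (chr18:76374327-76445180, plus strand) had the smallest relative spread in WT, at 55.0, 52.5 and 55.0 CPM. It was measured at 46.0, 47.4 and 49.9 CPM in OVE853 and at 43.5, 48.6, 47.8 and 41.6 in OVE918. All 7 transgenic libraries lay below all 3 WT libraries. The log2 fold change was -0.25 ± 0.08 in OVE918 (edgeR FDR = 0.0494) and -0.18 ± 0.09 in OVE853 (edgeR FDR = 0.165). The OVE918 call sat at the threshold and was lost in 15 of 19 alternative analyses, over which the log2 fold change ran from -0.29 to -0.20 and the FDR from 0.0214 to 0.186.

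Smad4, the partner that SMAD2 and SMAD3 share, was measured at 71.6 ± 8.16 CPM in WT, 75.2 ± 4.11 in OVE853 and 69.6 ± 6.23 in OVE918, and the ranges of all 3 groups overlapped. Its log2 fold change was 0.07 in OVE853 (95% interval -0.17 to 0.31) and -0.04 in OVE918 (-0.27 to 0.19), neither of which passed the test (edgeR FDR = 0.672 and 0.824).

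The opposite position of Smad3 and Smad2 in OVE853 shows in their ratio within a library, which does not depend on scaling. Per exon length, Smad3 stood at 2.49 ± 0.354 times the level of Smad2 in WT (range 2.29 to 2.90), at 4.15 ± 0.204 times in OVE853 (3.92 to 4.29) and at 3.05 ± 0.346 times in OVE918 (2.59 to 3.41). The OVE853 range lay above both others. The ratios given here were chosen after the counts had been seen and are a description without a test.

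**Figure D2:**
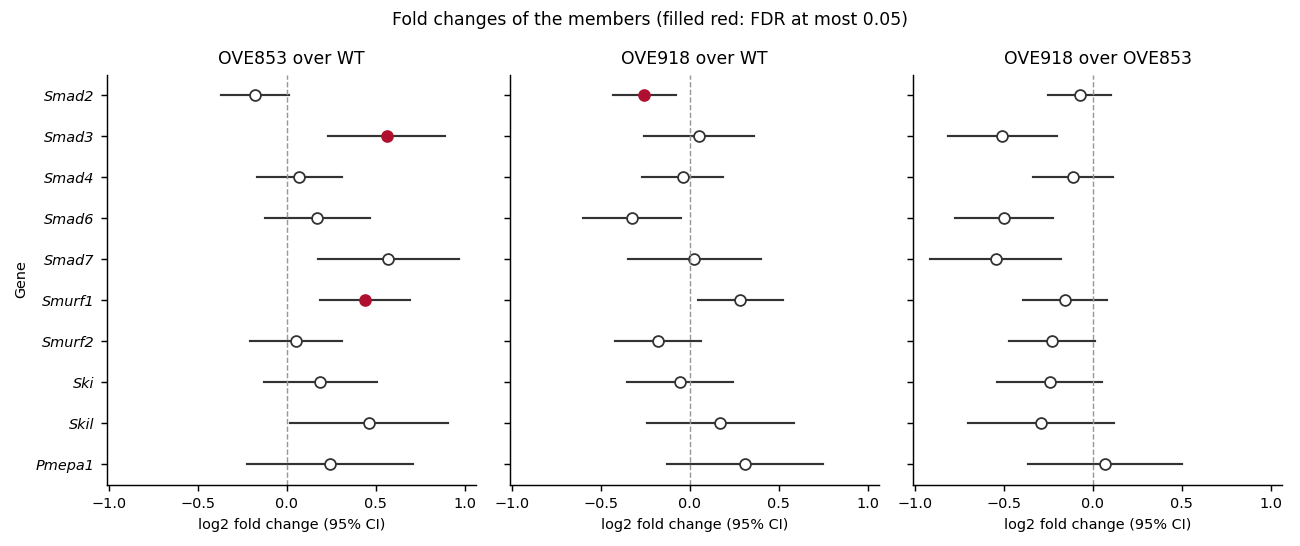
Log2 fold changes of the 10 members (x axis) with 95% confidence intervals (lines) from the edgeR fit, for OVE853 over WT, OVE918 over WT and OVE918 over OVE853. Filled red points have an FDR of at most 0.05, which holds for Smad3 and Smurf1 in the first panel and Smad2 in the second.

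Of the inhibitory SMADs, Smad7, the antagonist that TGF-β induces in many cell types, was measured at 22.5, 22.4 and 17.1 CPM in WT. It stood at 31.7, 24.9 and 35.5 CPM in OVE853 and at 18.4, 26.6, 20.9 and 18.1 in OVE918. The OVE853 libraries all exceeded the WT libraries, although replicate 2 did so by little, and the OVE918 libraries overlapped the WT range. The log2 fold change in OVE853, 0.57 ± 0.18, was the largest of the 10 members there but missed the threshold (edgeR FDR = 0.0544). It was called in 4 of 19 alternatives, which were DESeq2 (FDR = 0.0224) and leaving out OVE853 replicate 2, OVE918 replicate 2 or OVE918 replicate 4 (edgeR FDR = 0.0479, 0.0347 and 0.0441). The edgeR FDR was 0.159, at a log2 fold change of 0.45, without WT replicate 3, the library with the high retinal neuron markers. In OVE918 it was 0.03 ± 0.17 (edgeR FDR = 0.936).

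Smad6, which mainly restrains the BMP branch of the family, was measured at 32.2, 36.1 and 24.1 CPM in WT, where replicate 3 was low. It stood at 35.7, 31.8 and 36.5 CPM in OVE853 and at 24.2, 23.9, 24.5 and 25.8 in OVE918. The 4 OVE918 libraries lay within 2 CPM of each other and below every other library except WT replicate 3. The log2 fold change was 0.17 ± 0.13 in OVE853 (edgeR FDR = 0.384) and -0.33 ± 0.13 in OVE918 (edgeR FDR = 0.0964). Without WT replicate 3 the OVE918 value was -0.48 (edgeR FDR = 0.00561), so that this library decided the call.

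Within a library, Smad6 stood per exon length at 2.19 ± 0.162 times Smad7 in WT (2.07 to 2.37), 1.69 ± 0.186 times in OVE853 (1.51 to 1.88) and 1.77 ± 0.334 times in OVE918 (1.32 to 2.10). The range of OVE853 lay below that of WT. The ratio of Smad7 to Smad3 hardly differed, at 0.329 ± 0.0472, 0.328 ± 0.0370 and 0.323 ± 0.0326 in WT, OVE853 and OVE918, so that the antagonist and the transducer kept a like proportion in each group.

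Of the SMURF ligases, which attach ubiquitin to SMADs and receptors, Smurf1 (chr5:144813300-144902866, minus strand) was measured at 21.8, 20.5 and 24.1 CPM in WT. It stood at 29.9, 27.1 and 33.1 CPM in OVE853 and at 24.8, 27.3, 30.4 and 25.3 in OVE918. All 7 transgenic libraries exceeded all 3 WT libraries. Its log2 fold change was 0.44 ± 0.11 in OVE853 (edgeR FDR = 0.0277) and 0.28 ± 0.11 in OVE918 (edgeR FDR = 0.0939), where it was not called. The call in OVE853 was lost without WT replicate 2, OVE853 replicate 1 or OVE853 replicate 3, at log2 fold changes from 0.36 to 0.44 and an edgeR FDR from 0.0795 to 0.115.

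Smurf2, its close relative, was measured at 46.5 ± 4.52 CPM in WT, 48.2 ± 0.491 in OVE853 and 41.1 ± 5.29 in OVE918. The OVE853 libraries lay inside the WT range and those of OVE918 overlapped it from below, and neither log2 fold change, 0.05 ± 0.12 or -0.18 ± 0.11, was called (edgeR FDR = 0.774 and 0.293). Per exon length Smurf1 stood at 0.458 ± 0.0795 times Smurf2 in WT (0.408 to 0.550), 0.592 ± 0.0531 times in OVE853 (0.540 to 0.646) and 0.629 ± 0.0675 times in OVE918 (0.559 to 0.705). Every OVE918 library lay above the WT range, whereas OVE853 overlapped it through WT replicate 3.

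Upstream sequences are shown for Smad3 and Smurf1, the members that rose in OVE853, because SMAD complexes bind short DNA elements. They come from the RefSeq promoter table of the assembly GRCm38.p6, which holds a window for 5 of the members that could be shown (Smad3, Smad6, Smurf1, Smurf2 and Ski), and run 5′ to 3′ along the gene up to the base before its start. Capitals mark the SMAD-binding element CAGAC or its complement GTCTG. Smurf1 is at chr5:144965831-144966080 and Smad3 at chr9:63757995-63758244, both on the minus strand.
Smurf1: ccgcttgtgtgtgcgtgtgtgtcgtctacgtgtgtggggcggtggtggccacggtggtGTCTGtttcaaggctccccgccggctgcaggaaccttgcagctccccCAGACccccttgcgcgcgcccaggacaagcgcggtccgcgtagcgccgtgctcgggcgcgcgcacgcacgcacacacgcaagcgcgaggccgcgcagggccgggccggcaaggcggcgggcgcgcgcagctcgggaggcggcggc
Smad3: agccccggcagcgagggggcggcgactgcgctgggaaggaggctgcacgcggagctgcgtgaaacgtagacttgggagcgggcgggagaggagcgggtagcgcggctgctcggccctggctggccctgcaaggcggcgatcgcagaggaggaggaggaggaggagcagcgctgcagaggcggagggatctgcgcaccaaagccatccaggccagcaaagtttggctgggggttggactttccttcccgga

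The window of Smurf1 held 2 matches, which end 188 and 141 bases before the start, and that of Smad3 held 0. Over windows of 300 bases, which add 50 bases after the start, Smurf1 and Smurf2 held 2 matches each and Smad3, Smad6 and Ski 0. A match was present in 49.6% of the 32851 windows of the table, so that its presence in 2 of 5 members is a description of these letters and no more.

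A longer form of the element, the palindrome GTCTAGAC, which overlaps neither CAGAC nor GTCTG, was found in 0.213% of all windows of 300 bases and in 1 of the 5 members. It spans the start of Smad6 at chr9:64022046-64022073 on the minus strand of GRCm38.p6, with 4 of its bases on each side, and is shown in capitals with its flanks.
Smad6: ccgccaaagtGTCTAGACtggcatatga

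The sequence is a description and not a measured site. As given above, Smad6 was not called in either line.

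The co-repressors of the SKI family bind SMAD complexes and block transcription. Skil, which TGF-β is known to induce in other cells, was measured at 66.9, 59.9 and 42.9 CPM in WT. It stood at 78.4, 73.8 and 81.2 CPM in OVE853 and at 59.5, 77.3, 72.7 and 45.1 in OVE918. The OVE853 libraries all lay above WT, while in both other groups 1 library, WT replicate 3 and OVE918 replicate 4, was far below the rest. The log2 fold change was 0.46 ± 0.20 in OVE853 (edgeR FDR = 0.133) and 0.17 ± 0.19 in OVE918 (edgeR FDR = 0.570). Without WT replicate 3 these values were 0.30 (edgeR FDR = 0.364) and 0.01 (edgeR FDR = 0.988).

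Ski itself was measured at 77.1 ± 12.1 CPM in WT, 87.8 ± 5.96 in OVE853 and 74.3 ± 11.0 in OVE918, with overlapping ranges, and neither of its log2 fold changes, 0.19 ± 0.14 and -0.05 ± 0.13, was called (edgeR FDR = 0.373 and 0.823). Per exon length Skil stood at 0.615 ± 0.0411 times Ski in WT (0.569 to 0.648) and 0.749 ± 0.0154 times in OVE853 (0.731 to 0.761), ranges that did not overlap. In OVE918 it was 0.717 ± 0.0754 times, with OVE918 replicate 4 inside the WT range at 0.606.

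Pmepa1, which keeps SMAD2 and SMAD3 from the receptor and is a classical TGF-β-induced gene, was measured at 57.9, 59.2 and 53.2 CPM in WT. It stood at 73.8, 55.4 and 72.4 CPM in OVE853 and at 71.2, 44.0, 83.9 and 82.9 in OVE918. OVE853 replicate 2 lay inside the WT range and OVE918 replicate 2 below it, and all other transgenic libraries lay above it. The log2 fold changes were 0.24 ± 0.21 (edgeR FDR = 0.434) and 0.31 ± 0.20 (edgeR FDR = 0.306). Without OVE918 replicate 2 the value in OVE918 was 0.49 (edgeR FDR = 0.0237), so that this library decided the call. OVE918 replicate 2 was the lowest of its group for Pmepa1 and, by little, for Smad6, but the highest of it for Smad2, Smad3, Smad7, Smurf2, Ski and Skil.

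**Figure D3:**
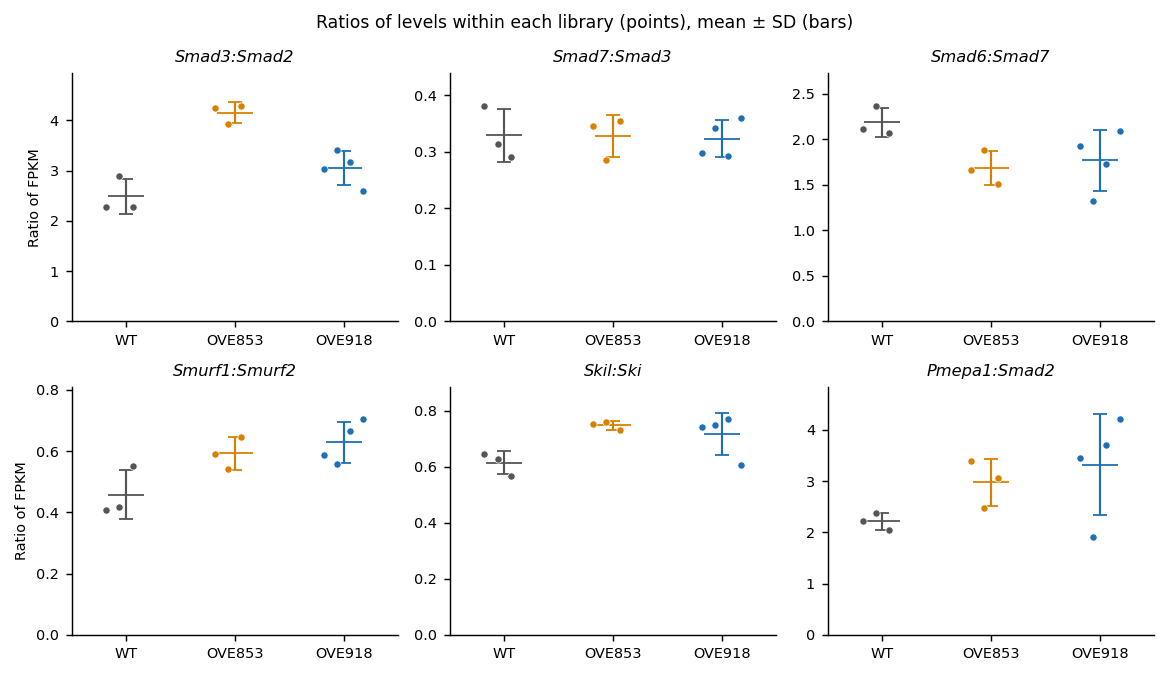
Ratios of FPKM between 2 members within the same library (y axis, from 0) for WT, OVE853 and OVE918 (x axis). Points are libraries and bars give mean and SD. The ratio of Smad3 to Smad2 separates OVE853 (3.92 to 4.29) from WT (2.29 to 2.90), while the ratio of Smad7 to Smad3 is near 0.33 in every group.

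Within a group, most members were high or low in the same libraries. WT replicate 3 was below its group mean for 8 of 10 members, by 0.16 on average on the log2 scale, and OVE918 replicate 4 was also below it for 8 of 10, by 0.15. WT replicates 1 and 2 were each above the mean for 8 of 10 and OVE918 replicate 3 for 9. OVE853 replicate 2 was above it for 1 of 10 members. The summed lens fibre markers were highest in OVE918 replicates 1 and 4, at 28290 and 28150 CPM, and in OVE853 replicate 2, at 15780, and these were the libraries with few members above the mean in their lines. In WT the order differed, since replicate 3 had the lowest fibre sum, at 14830. The part of the fibre and neuron markers in the members' levels was not tested. With both WT replicate 3 and OVE918 replicate 4 left out, an alternative chosen after seeing the data, 2 members were called in OVE853, 2 in OVE918 and 2 between the lines, where 19.4%, 17.8% and 4.91% of all genes were called.

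As levels per exon length, Smad3 was the highest member in WT, at 14.0 ± 1.59 FPKM, followed by Ski at 12.8, Pmepa1 at 12.5, Smad4 at 11.6, Smad6 at 10.1, Smurf2 at 8.67, Skil at 7.93, Smad2 at 5.64, Smad7 at 4.59 and Smurf1 at 3.93. Only the steps from Skil to Smad2 and from Smad2 to Smad7 were free of overlap between libraries. In OVE853 Smad3 was at 20.7 ± 1.51 FPKM, above the highest library of any other member, and Smad2 was last at 4.98. In OVE918 Pmepa1 at 15.5 ± 4.09 and Smad3 at 14.5 ± 2.64 led with overlapping ranges, and Smurf1, Smad2 and Smad7 stood at 4.78, 4.73 and 4.67 without a gap between them. Smad3, the highest member in WT, thus ranked above 68.3% of the tested genes there, and Smurf1, the lowest, above 22.0%.

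The test between the lines asks whether the members differ between OVE918 and OVE853. Tgfb1 counts were 2.22-fold higher in OVE918, but the test cannot separate dose from any other property of a line. Most members stood lower in OVE918, where 9 of 10 had a lower fitted level. Their median log2 difference was -0.24, beside -0.02 over all tested genes, of which 46.5% were higher. None passed the test (0 higher and 0 lower), where 0.369% of all genes were called higher and 0.928% lower and 0.486% were DEGs, and 3 of 10 members had an unadjusted p under 0.05, as did 22.9% of all genes. By DESeq2, 3 members passed, all lower in OVE918, but it called 8.66% of all genes in this contrast, against 1.3% in edgeR. Of the genes called, 53.6% were higher by DESeq2 and 28.5% by edgeR.

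Those 3 members were Smad3, Smad6 and Smad7. The log2 difference between OVE918 and OVE853 was -0.51 ± 0.14 for Smad3 (edgeR FDR = 0.0844), -0.50 ± 0.12 for Smad6 (edgeR FDR = 0.0761) and -0.55 ± 0.17 for Smad7 (edgeR FDR = 0.110). Their 95% intervals were -0.81 to -0.20, -0.77 to -0.22 and -0.91 to -0.18. All 4 OVE918 libraries lay below all 3 OVE853 libraries for Smad3, Smad6 and Smurf2, which is 3 of 10 members, where 29.5% of all genes did not overlap. Smurf1, Skil, Ski, Smad4 and Smad2 differed by -0.16, -0.29, -0.24, -0.11 and -0.07, and Pmepa1 was the 1 member with a positive value, 0.07, which changed sign in 5 of 19 alternatives. Smad6 had an edgeR FDR of 0.0160 without WT replicate 3, and Smad3 and Smad7 had 0.0419 and 0.0424 without OVE918 replicate 2.

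Other genes of the pathway were taken from a list of 62, of which 55 were tested. In OVE853, 7 were called higher and 4 lower, in OVE918 8 were called higher and 8 lower, and between the lines 0 were called higher and 2 lower, beside the shares of all genes given above. Of these, 5 higher and 2 lower were DEGs in OVE853, and 6 and 3 in OVE918. The list's median log2 fold change was 0.21 in OVE853 and 0.03 in OVE918. The count in OVE853 ranged from 7 to 22 when single libraries were left out, and it was 17 by DESeq2.

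**Figure D4:**
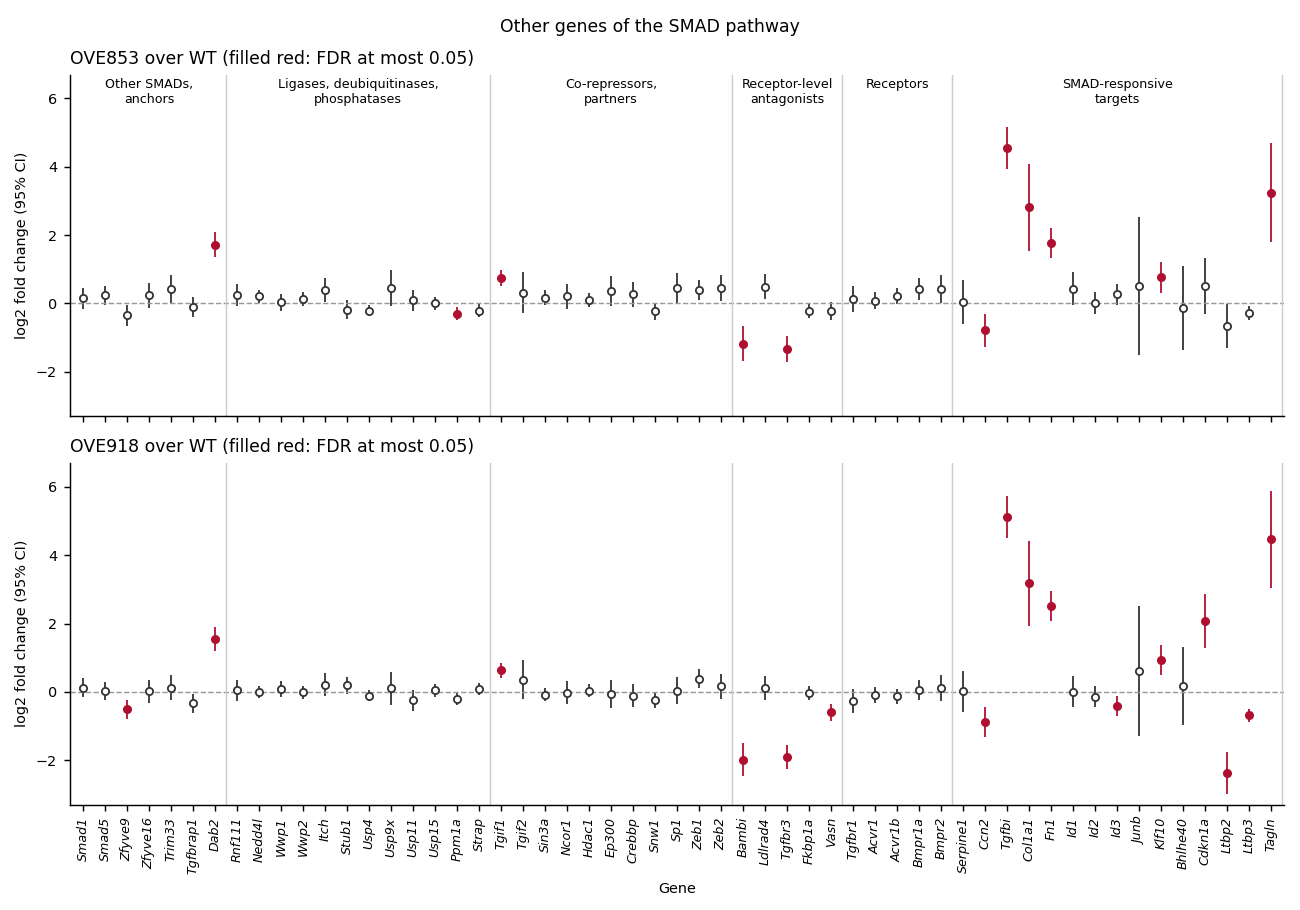
Log2 fold changes (y axis) with 95% confidence intervals of the 55 tested genes of the pathway list (x axis), grouped by role, in OVE853 over WT (top) and OVE918 over WT (bottom). Filled red points have an FDR of at most 0.05. The called genes with the largest values are SMAD-responsive targets such as Tgfbi at 4.55 and 5.13. No gene of the receptor group is called in either line, and the co-receptor Tgfbr3, called lower in both, is grouped with the receptor-level antagonists.

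Among other SMADs and the proteins that anchor SMADs, the adaptor Dab2 was the 1 gene called higher. It stood at 5.01, 5.27 and 4.87 CPM in WT, at 15.7, 17.3 and 17.0 in OVE853 and at 15.3, 16.9, 16.1 and 10.5 in OVE918. Every transgenic library was above every WT library, with log2 fold changes of 1.72 ± 0.17 (edgeR FDR = 0.000109) and 1.54 ± 0.16 (edgeR FDR = 8.41e-05). Zfyve9 (SARA), which presents SMAD2 and SMAD3 to the receptor, fell by 0.52 on the log2 scale in OVE918 (edgeR FDR = 0.0176), and its value of -0.35 in OVE853 did not pass (edgeR FDR = 0.107). The BMP SMADs Smad1 and Smad5 had log2 fold changes of 0.15 and 0.24 in OVE853 and 0.13 and 0.03 in OVE918, and Zfyve16, Trim33 and Tgfbrap1 had values between -0.33 and 0.42. None of these 5 was called. Smad9 was under the filter, at 4.61 to 5.50 CPM in WT, 7.08 to 11.2 in OVE853 and 2.35 to 4.33 in OVE918, and the 3 ranges did not overlap.

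Of 5 tested receptor-level antagonists, 2 were called lower in OVE853 and 3 in OVE918. Bambi, a pseudoreceptor that blocks TGF-β and BMP receptors, stood at 33.8, 19.4 and 21.7 CPM in WT, at 11.4, 10.2 and 11.3 in OVE853 and at 6.30, 4.28, 7.51 and 7.01 in OVE918. It fell by 1.18 ± 0.23 on the log2 scale in OVE853 (edgeR FDR = 0.00729) and by 1.99 ± 0.22 in OVE918 (edgeR FDR = 0.000121). The co-receptor betaglycan, Tgfbr3, whose shed form binds the ligand, stood at 28.0, 36.0 and 45.8 CPM in WT, at 13.2, 15.2 and 15.1 in OVE853 and at 10.3, 10.0, 10.7 and 8.07 in OVE918. It fell by 1.34 ± 0.17 (edgeR FDR = 0.000618) and by 1.90 ± 0.16 (edgeR FDR = 2.02e-05).

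For both genes the 3 groups did not overlap, and each was lower in OVE918 than in OVE853 by a difference that did not pass (log2 values of -0.81 and -0.57, edgeR FDR = 0.0832 and 0.0949). Vasn, which traps TGF-β, fell by 0.60 in OVE918 (edgeR FDR = 0.00332) and had -0.23 in OVE853. Ldlrad4 and Fkbp1a were not called, at 0.49 and -0.22 in OVE853 and 0.11 and -0.05 in OVE918, and Nrros was under the filter with at most 1.23 CPM. Bambi and Tgfbr3 were highest in WT, as were the summed markers of retinal neurons and ciliary epithelium, and the part of those cells in the difference was not tested.

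None of the 5 tested genes of the receptor group was called. That group leaves out the co-receptor Tgfbr3, which was listed with the antagonists and was called lower in both lines, as given above. Tgfbr1 was measured at 40.2 to 62.2 CPM in WT, 52.7 to 59.4 in OVE853 and 32.9 to 48.1 in OVE918, with log2 fold changes of 0.12 and -0.28. Acvr1, Acvr1b, Bmpr1a and Bmpr2 had values of 0.08, 0.21, 0.41 and 0.41 in OVE853 and -0.09, -0.13, 0.05 and 0.10 in OVE918. Tgfbr2, the type II receptor that binds TGF-β, was under the filter, at 1.58 to 2.7 CPM in WT, 2.22 to 3.87 in OVE853 and 3.20 to 4.42 in OVE918, and the OVE918 libraries lay above those of WT. Acvrl1 stood at 0.46 to 1.43 CPM in all libraries.

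Of 12 further ligases, deubiquitinases and phosphatases, 1 was called, the SMAD phosphatase Ppm1a, which fell by 0.30 in OVE853 (edgeR FDR = 0.0401) and had -0.22 in OVE918. Of 11 tested co-repressors, co-activators and partners, 1 was called in each line, the co-repressor Tgif1, which rose by 0.75 ± 0.11 on the log2 scale in OVE853 (edgeR FDR = 0.00112) and 0.63 ± 0.10 in OVE918 (edgeR FDR = 0.00138). These called genes are named because they are the only ones of their groups, a choice made after their values were seen. Tgif1 stood at 34.7, 41.4 and 33.0 CPM in WT and between 53.1 and 66.3 in the transgenic libraries, so that this co-repressor rose in both lines while Ski and Skil were not called in either.

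Among 15 tested SMAD-responsive targets, 5 were called higher and 1 lower in OVE853, and 6 and 4 in OVE918. The matrix genes Tgfbi, Col1a1 and Fn1 had log2 fold changes of 4.55, 2.81 and 1.77 in OVE853 and 5.13, 3.18 and 2.52 in OVE918, and Tagln, an actin-binding protein of smooth muscle, had 3.24 and 4.46. The cell cycle inhibitor Cdkn1a rose by 2.07 in OVE918 (edgeR FDR = 0.00222) and had 0.51 in OVE853 (edgeR FDR = 0.346). Its difference between the lines did not pass (edgeR FDR = 0.0554). The latent TGF-β binding protein Ltbp2 fell by 2.39 in OVE918 (edgeR FDR = 0.000243) and had -0.66 in OVE853 (edgeR FDR = 0.138), and it was 1 of 2 listed genes that differed between the lines. These targets were known to respond before the list was made and many are named by the study, so their direction is no independent evidence.

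The member with the smallest p in either line was Smurf1, and its profile over the 10 libraries was most like those of Parvb (Pearson r = 0.939), Icam1 (r = 0.937) and Vcl (r = 0.922) among 11090 other tested genes. Of these genes, 11 had an r above 0.9. The points share library, depth and group, and the value is a description. Parvb, a protein of focal adhesions, stood at 13.1 to 16.7 CPM in WT, 18.2 to 26.2 in OVE853 and 16.2 to 20.7 in OVE918. Icam1 stood at 2.31 to 4.63 CPM in WT, 10.75 to 14.5 in OVE853 and 6.67 to 10.78 in OVE918. Vinculin, Vcl, stood at 80.5 to 81.4, 104.4 to 119.8 and 83.3 to 119.7 CPM.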

How the data were processed

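Raw read-pair counts per gene were deposited by the authors without normalization, made with Cutadapt, STAR on mm39 and reverse-stranded featureCounts on RefSeq exons. The table holds 50763 genes and 10 columns, matched to samples through the sample descriptions. Here counts were fitted in R 4.3.3 with edgeR 4.0.16 (TMM, robust quasi-likelihood F test, 3 groups in 1 model, 3 contrasts, two-sided, Benjamini-Hochberg). The filter was 2 FPKM in 5 of 10 libraries, with exon lengths of GENCODE vM39 matched by symbol for 43252 genes and by synonym for 22. The other 7489 genes had no length and were not tested. SE was the log2 fold change over the root of F. Replicates are pools of mice, and p-values measure the spread between pools. DESeq2 1.42.0, upper-quartile factors, other filters, fits of 2 groups, no robust estimation, a replicate block and leaving out each library were alternatives. Members, lists and tests were chosen with earlier results of these data known. All members and Tgfb1 are named, and from the list the DEGs of either line and every receptor, other SMAD and receptor-level antagonist, and for likeness the 3 genes of highest r. Authors' comparison values were not used.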

Additional observations from a re-analysis of the deposited data

Results flagged for a closer look

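Ltbp2 and Id3 were the 2 genes of the pathway list whose effects differed between the lines by the direct test. Ltbp2, a latent TGF-β binding protein, was lower in OVE918 than in OVE853 by a log2 value of -1.73 (edgeR FDR = 0.0249), and Id3, an inhibitor of basic helix-loop-helix factors that BMP signalling induces, by -0.68 (edgeR FDR = 0.0414). Id3 is named after its value was seen. In Id3 the OVE918 libraries stood at 101.7, 97.5, 109.7 and 93.5 CPM, below WT replicates 2 and 3 at 149 and 145 and below all OVE853 libraries. WT replicate 1, at 108.3 CPM, lay inside the OVE918 range. Id3 was called lower in OVE918 than in WT, at -0.42 (edgeR FDR = 0.0494), while the difference of OVE853 from WT was 0.27 (edgeR FDR = 0.204).

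In 2 genes 1 of the 4 OVE918 libraries stood apart from the others. Smad1 was lowest in OVE918 replicate 2, at 10.8 CPM, and Zfyve9 was lowest in OVE918 replicate 4, at 23.2 CPM. Dixon's ratio was 0.852 and 0.848, above its critical value at the 95% level. Of 33 genes examined in this way, which include the 10 members, these 2 passed, and 5.23% of all tested genes did. Chance gives about 1 in 20.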

How the results depend on the processing

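Over 19 alternatives for each of 10 members and 3 contrasts, 510 of 570 values kept their direction and their side of the threshold, 23 lost a call, 17 gained one and 20 changed sign. When single libraries were left out, the count of members called ran from 0 to 3 in OVE853 (2 as reported), with 0 without OVE853 replicate 1 or 3, from 0 to 2 in OVE918 (1 as reported) and from 0 to 2 between the lines (0 as reported). The count was 0 in both lines when DEGs were counted. In OVE918 it was also 0 with upper-quartile factors, with filterByExpr, without a filter, with only the 2 groups and with the replicate block, and between the lines it was 3 with DESeq2 and 1 with only the 2 groups, which called 8.66% and 3.45% of all genes there, against 1.3% as reported. With WT replicate 3 and OVE918 replicate 4 both left out it was 2 in OVE918 and 2 between the lines. For the pathway list, the count in OVE853 (11 as reported) was 17 with DESeq2, 18 with both libraries left out and 7 to 22 with single libraries left out, and in OVE918 (16 as reported) it ran from 13 to 18. Between the lines (2 as reported) it was 11 with DESeq2, 1 with upper-quartile factors, 6 with only the 2 groups, 1 with the replicate block, 4 with both libraries left out and 0 to 6 with single libraries left out. Log2 fold changes of Tgfb1 ran from 2.64 to 2.78 for OVE853 and from 3.77 to 3.94 for OVE918. The cause of these changes was not tested.

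Signs changed only for values near 0. Over single libraries left out, log2 fold changes in OVE918 ran from -0.0402 to 0.158 for Smad3, -0.134 to 0.0192 for Smad4, -0.107 to 0.0902 for Smad7 and -0.175 to 0.0415 for Ski. In OVE853 they ran from -0.0227 to 0.118 for Smad4 and -0.0207 to 0.118 for Smurf2, and between the lines from -0.0529 to 0.239 for Pmepa1. With both libraries left out, Smad4 was -0.0234 and Smurf2 -0.0211 in OVE853, Smad7 was -0.0309 in OVE918 and Pmepa1 was -0.0173 between the lines. With the replicate block, Smad4 was 0.0233 and Ski 0.0203 in OVE918 and Pmepa1 -0.0390 between the lines. The replicate block called 2 members in OVE853 and 0 between the lines. Same-numbered libraries did not deviate together (r from -0.304 to 0.0835). The labels do not say whether the numbers pair the pools, and with so few pools these values cannot decide it. With 3 or 4 pools a group, the SE of the members' log2 fold changes ran from 0.08 to 0.21.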
